A study of Mus musculus with 12 samples.

Results

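The translation initiation and elongation factors were followed across 4 isolated mouse germ cell types. The members were the probe sets, groups of oligonucleotides that read 1 transcript, whose platform annotation gave a single gene symbol beginning with Eif or Eef and a digit. The rule used no measured value. It took 126 of the 29131 probe sets with 1 symbol on the 3 Affymetrix mouse designs U74Av2, U74Bv2 and U74Cv2, which carried 66, 35 and 25 of them. These stood for 59 of 15964 named genes, 47 of them Eif and 12 Eef. Another 7 probe sets with such a symbol among several were left out.

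Initiation factors bring the initiator transfer RNA, the messenger RNA and the ribosomal subunits together. The factor eIF2 carries the initiator transfer RNA and is recharged by the exchange factor eIF2B, eIF3 is the scaffold on the small subunit, and the eIF4 proteins bind the cap and unwind the leader, while the elongation factors eEF1 and eEF2 deliver each aminoacyl transfer RNA and move the ribosome along. Male germ cells are known for storing many messenger RNAs and translating them days later in the spermatid, so that control of translation is prominent in this tissue.

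Mouse total RNA from spermatogonia of type A and of type B, from pachytene spermatocytes and from round spermatids was hybridised, with 1 array per cell type and design, 12 arrays in all. Both spermatogonial types are mitotic, pachytene spermatocytes are in meiotic prophase and round spermatids are haploid. The labels describe each array as a single sample and name no strain, age, genotype, treatment or isolation method. Without replicates the differences carry neither an error between samples nor a p-value, and precision is limited by how few arrays there are.

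Signals are in array units on a linear scale, and the 4 signals of a gene are given in the order type A, type B, pachytene, round. A floor was set at 0.4 of the trimmed mean of an array, close to 50 units, and a ratio against a signal at the floor is a lower bound, written as "at least". Ratios compare 1 probe set between cell types and, unless stated, use the probe set of a gene that has the highest mean. A signal of 1 gene cannot be set against that of another, since their probes differ. Of the 126 probe sets 29 never exceeded the floor and are not described further. Differences of at least 2-fold were counted, and smaller ones are given as values. Control probe sets repeated on the 3 designs gave log2 ratios whose SD across designs was 0.21 at the step from type A to type B, 0.20 from type B to pachytene and 0.38 from pachytene to round spermatids. Of 228 readings of negative controls 22 exceeded the floor, and the highest of each array lay between 12.9 and 103.5 units. Fewer cells of a type and less RNA per cell cannot be told apart in these bulk samples.

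The cell types carried most of their defining genes. All 6 spermatogonial markers were at least 2-fold lower in pachytene than in type B cells, 4 of 6 pachytene markers were higher there, and 4 of 5 tested spermatid markers were higher in round spermatids than in pachytene spermatocytes. The 6 pachytene markers summed to 35063 units in pachytene spermatocytes and 32003 in round spermatids, and so did not separate these cell types. From the former to the latter 1 of the 6 was at least 2-fold lower and 1 higher. The spermatogonial marker Sall4 read 588 units in round spermatids and 647 in type B. The spermatid gene Prm1 already read 1321 units in pachytene spermatocytes, Sycp1 was lowest there at 220.0 units, and Spaca1 was at the floor in both later cell types. Markers of other testis cells were present. The summed signal of 5 fibroblast and matrix genes was 3959, 8958, 114 and 352 units, with 4 of 5 at least 2-fold higher in type B than in type A, and that of 3 peritubular myoid genes was 2362, 3434, 391 and 284 units. The 6 Sertoli cell genes summed to 5030.1, 3598, 2348 and 682 units with Amh at the floor in every cell type, and the 5 Leydig cell genes to 393, 681, 663 and 182 units. The 4 macrophage and leukocyte genes summed to 208, 416, 62.3 and 100.1 units with Ptprc at the floor in every cell type, and the erythroid gene Hba-a1 read 309, 866, 102 and 93.2 units. The signals summed for other testis cells were all lower in pachytene than in type B cells, as were several of the factors described below. The part of such cells in the factor signals was not tested.

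Most factor genes were detected in every cell type. Of the 59 genes 44 exceeded the floor in all 4 cell types, 13 in some of them and 2, Eef1g and Eif4h, in none. Of all 15964 genes 7920 exceeded it in all 4 and 2961 in none. A signal at the floor gives no level: Eef1g, a subunit of the eEF1B exchange complex, reached at most 14.4 units, and Eif4h, a helper of the eIF4A helicase, at most 16.2 units. Of the other 57 genes, 22 differed by at least 2-fold at 1 or more of the 3 steps between neighbouring cell types. This count was not taken over all genes. The highest signal fell in type A spermatogonia for 14 genes, in type B for 18, in pachytene spermatocytes for 14 and in round spermatids for 11. Over all 13003 genes past the floor it fell there for 3728, 3894, 2615 and 2766, in the same order.

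**Figure D1:**
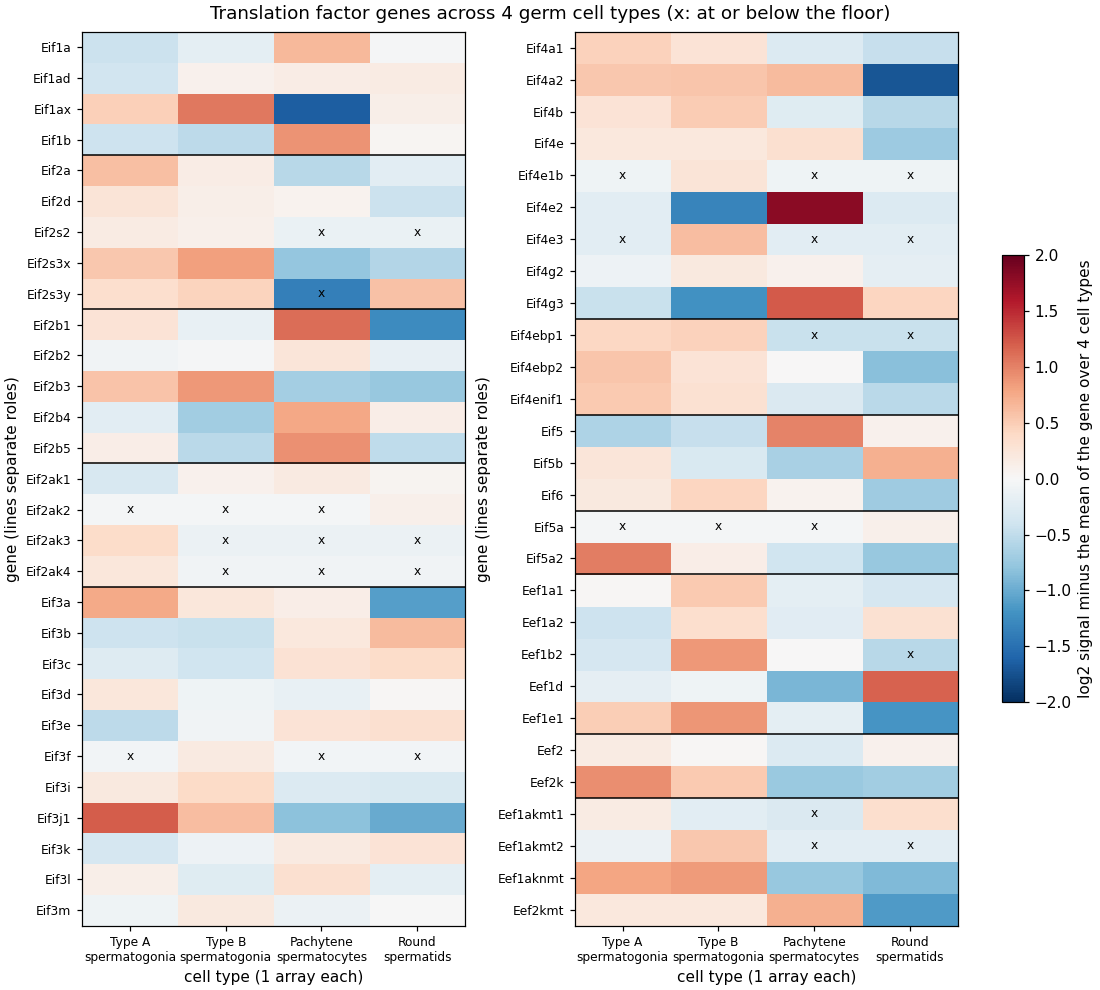
Log2 signal of 57 translation factor genes (rows, in 2 columns of panels, grouped by role) in 4 cell types (1 array each), drawn as the difference from the gene's own mean with signals below the floor set to it. An x marks a reading at or below the floor. Eif1ax and Eif2s3y are lowest in pachytene spermatocytes, Eif4e2, Eif2b1, Eif2b5 and Eif5 are highest there, Eif4a2 is lowest in round spermatids and Eef1d is highest there.

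Counts of factor genes past 2-fold are given beside those of all genes. For type B over type A spermatogonia 1 of 55 tested factor genes was at least 2-fold higher and 1 lower (1.82% each), where 3.92% of all 11951 tested genes were higher and 3.94% lower. The median log2 ratio was 0.02 for the factors and 0.01 for all genes. For pachytene spermatocytes over type B spermatogonia 7 of 53 were higher and 8 lower (13.2% and 15.1%), against 17.1% and 23.2% of 12281 genes, with medians of -0.27 and -0.28. For round spermatids over pachytene spermatocytes 4 of 49 were higher and 7 lower (8.16% and 14.3%), against 10.5% and 13.7% of 11203 genes, with medians of -0.19 and -0.06. No factor gene was at least 2-fold over each other cell type in type A or in type B spermatogonia (all genes 1.75% and 1.38%). In pachytene spermatocytes 1 of 57 was, Eif4e2 (all genes 3.72%), and in round spermatids 1, Eef1d (all genes 5.81%).

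The split between higher and lower depended on the scaling. For pachytene over type B, 11 of 52 factor genes were higher and 4 lower with a common median of all arrays (all genes 25.5% and 12.5%). With bacterial spike-in controls 15 of 52 were higher and 3 lower (all genes 29% and 10.1%). With quantile normalisation 5 of 53 were higher and 10 lower (all genes 18.3% and 20.7%). Spike-in scaling moved the median of all genes to -0.76 for type B over type A and to 0.35 for pachytene over type B. The factor medians were -0.74 and 0.45. With this scaling 16 of 53 factor genes were at least 2-fold lower in type B than in type A and none higher. Of all genes 33.8% were lower and 0.39% higher. The common median moved the median of all genes to 0.18 for pachytene over type B. A gene at least 2-fold changed in all 10 alternative settings is marked as such below. The mark says less for Eef1d, Eif1b, Eif2b1, Eif4a2 and Eif5, each read by 1 probe set on U74Av2. For them the settings that choose or average probe sets or designs could not change the ratio. The 2 probe sets of Eif2b5 are both on U74Av2 without special endings. For it, U74Av2 alone and leaving out special endings could not change the ratios. The stricter filter changes no ratio of any gene. The values as deposited nearly equal the main ones, since the trimmed means of the arrays were already alike.

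**Figure D2:**
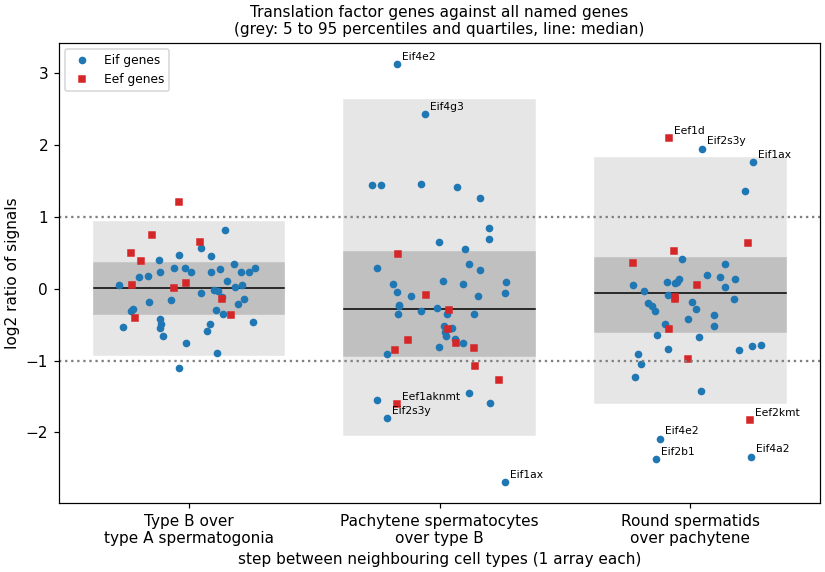
Log2 ratios of the factor genes (Eif genes as circles, Eef genes as squares) at the 3 steps between neighbouring cell types. Grey boxes span the 5 to 95 percentiles and the quartiles of all named genes tested, lines mark their medians (0.01, -0.28 and -0.06) and dotted lines mark 2-fold. Most points lie within the boxes, with Eif4e2 at 3.13 and Eif1ax at -2.70 for pachytene over type B among those far from the line.

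The exchange factor eIF2B, which returns eIF2 to its GTP-bound form, had all 5 subunit genes on the arrays, and 3 of them were high in pachytene spermatocytes. Start regions of the subunit genes are shown here as a description. The subunit that was lower in pachytene, Eif2b3, had no window, so that they do not cover this difference in direction. RefSeq windows (GRCm38.p6) of 100 bases, 70 before the start and 30 after it, were found for 4 of the 5 genes, none of them Eif2b3. Capitals mark CCGGAAG, an ETS-type motif, searched on both strands. The windows lie at chr5:124579102-124579201 (minus strand) for Eif2b1, chr12:85219411-85219510 (plus) for Eif2b2, chr5:31193110-31193209 (minus) for Eif2b4 and chr16:20498747-20498846 (plus) for Eif2b5.
Eif2b1: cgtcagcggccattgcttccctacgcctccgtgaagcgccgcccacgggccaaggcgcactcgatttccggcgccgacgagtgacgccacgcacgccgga
Eif2b2: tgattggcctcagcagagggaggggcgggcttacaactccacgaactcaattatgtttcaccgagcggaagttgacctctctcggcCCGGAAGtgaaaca
Eif2b4: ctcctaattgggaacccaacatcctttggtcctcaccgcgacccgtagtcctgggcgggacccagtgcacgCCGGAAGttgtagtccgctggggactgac
Eif2b5: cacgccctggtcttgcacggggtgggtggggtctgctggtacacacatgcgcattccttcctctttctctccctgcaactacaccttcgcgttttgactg
The motif stands 16 bases after the start in Eif2b2 and 1 base after it in Eif2b4, and these letters are not in the windows of Eif2b1 and Eif2b5. Over windows of 250 bases before to 50 after the start, 19 of 62 factor windows held the motif (30.6%, in 16 of 47 genes), against 8.86% of all 32851 windows and 13.6% of the 16015 windows of genes on the arrays. In the same order of factor windows, all windows and windows of genes on the arrays, the CCAAT box (CCAAT) was in 25.8%, 37.4% and 37.4%, the TATA box (TATAAA) in 6.45%, 13.6% and 9.34%, and the MYB-type letters AACNGCC in 16.1%, 12.1% and 13%. The cyclic AMP response element (TGACGTCA) was in 1.61%, 1.79% and 2.52%, Eef2 being the 1 factor gene with it. A match is a description of these letters.

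Eif2b5, the catalytic epsilon subunit (chromosome 16), gave 348, 220.1, 602 and 225 units. Pachytene spermatocytes were highest, 2.73-fold over type B spermatogonia, and round spermatids were 2.68-fold lower than pachytene. Its second probe set gave 124, 111, 302 and 81.6 units, with the same 2.73-fold and a 3.70-fold difference in the same directions. Eif2b1, the regulatory alpha subunit (chromosome 5), gave 226, 168, 404 and 78.1 units, 2.41-fold higher in pachytene than in type B and 5.17-fold lower in round spermatids. Round spermatids were the lowest of the 4 cell types for Eif2b1. Both differences of Eif2b1 and both of Eif2b5 were at least 2-fold in all 10 settings. With Eif4e2 these were the 3 of 57 factor genes at least 2-fold higher in pachytene than in both neighbours, which held for 4.69% of all genes.

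Eif2b4, the delta subunit (chromosome 5), gave 1998, 1423, 3931 and 2524 units, 2.76-fold higher in pachytene than in type B. Its round spermatid signal also lay above both spermatogonial signals. The other probe set, on U74Av2, gave 265, 219, 421 and 384 units in the same pattern, with pachytene 1.93-fold over type B. With quantile normalisation the log2 ratio of the gene was 0.73. Both probe sets have special endings, and without such probe sets Eif2b4 could not be measured. Eif2b2, the beta subunit (chromosome 12), stayed within 2-fold at 145, 150.0, 180.2 and 135 units, with pachytene highest on both of its probe sets. Eif2b3, the gamma subunit (chromosome 4), went the other way with 423, 519, 177 and 167 units, 2.92-fold lower in pachytene than in type B. That difference had a log2 ratio of -1.55, and of -0.95 with a common median and -0.97 with spike-in scaling. Over the 5 subunits the median log2 ratio was 1.27 at the pachytene step and -0.64 at the round spermatid step, beside -0.28 and -0.06 for all genes.

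**Figure D3:**
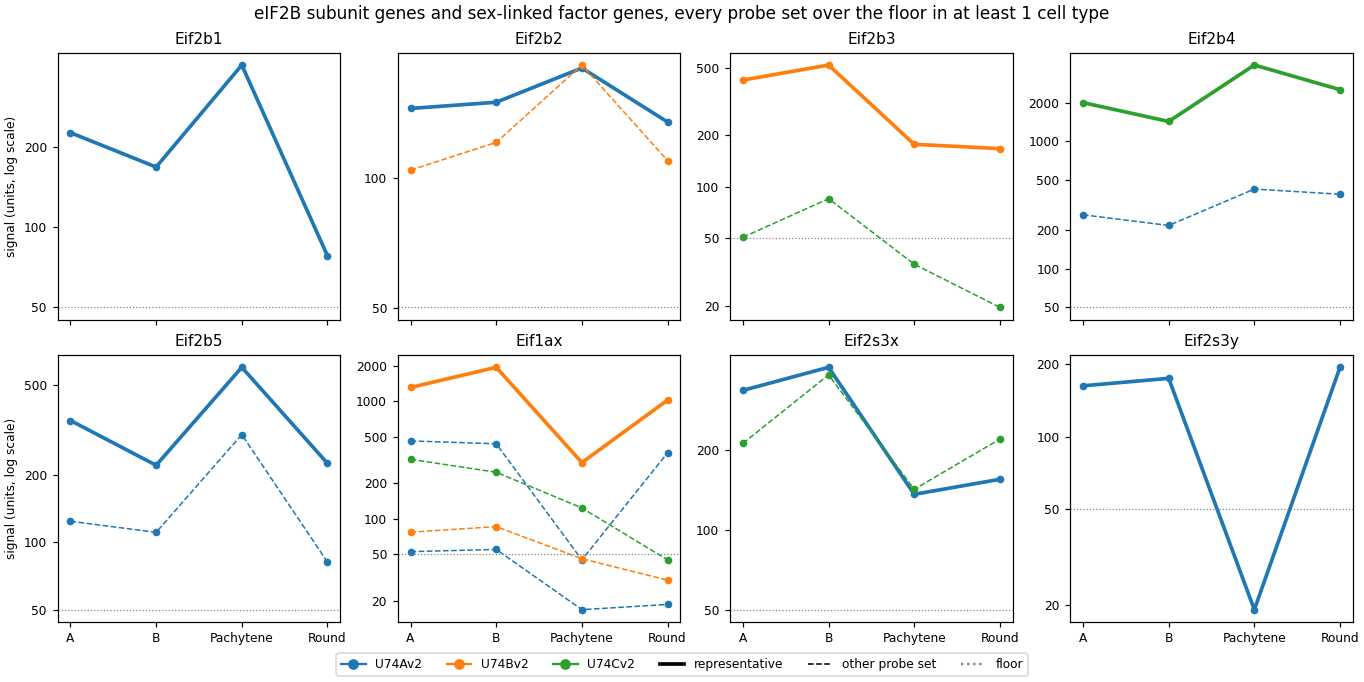
Signals (units, log scale) of the 5 eIF2B subunit genes and of Eif1ax, Eif2s3x and Eif2s3y in the 4 cell types (1 array per point). Colours mark the design, thick lines the probe set of highest mean signal, dashed lines other probe sets and the dotted line the floor. Eif2b1, Eif2b4 and Eif2b5 peak in pachytene spermatocytes, where Eif2b3 and the 3 sex-linked genes are lower than in type B.

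The factor eIF2 itself was measured through Eif2s2, its beta subunit, and the sex-linked pair of gamma subunit genes. The gene of its alpha subunit, Eif2s1, was not among the members. The pair, Eif2s3x on chromosome X and Eif2s3y on chromosome Y, is near-identical in coding sequence, so that their probes may read both. Eif2s3x gave 336, 411, 136 and 155 units, 3.01-fold lower in pachytene than in type B, and its second probe set 212, 385, 142 and 220.1 units, 2.70-fold lower. Both of these placed pachytene lowest, and its other probe set did not exceed the floor. With spike-in scaling the log2 ratio was -0.82 in place of -1.59. Eif2s3y gave 162, 174, 19.2 and 194 units, the pachytene signal being at the floor, at least 3.49-fold lower than type B and at least 3.87-fold lower than round spermatids. Its signals in the other 3 cell types lay close together. With a floor of 0.8 the log2 ratios were bounded at -0.80 and 0.95.

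The start regions of this pair are shown because both genes were lower in pachytene spermatocytes and stand on different sex chromosomes. Capitals mark the longest run of letters that the 2 windows share, 12 bases. The windows lie at chrX:94212622-94212721 (minus strand) and chrY:1010525-1010624 (plus strand) in GRCm38.p6, with the same 70 and 30 bases on either side of the start.
Eif2s3x: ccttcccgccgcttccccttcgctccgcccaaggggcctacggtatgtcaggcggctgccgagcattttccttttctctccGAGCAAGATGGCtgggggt
Eif2s3y: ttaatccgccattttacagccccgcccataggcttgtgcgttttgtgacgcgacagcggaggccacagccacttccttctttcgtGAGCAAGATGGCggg
The shared run lies after the start in both windows, and the upstream letters share no longer run.

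Eif1ax, the X-linked gene of the scanning factor eIF1A, was lower in pachytene than in type B on all 5 of its 8 probe sets that exceeded the floor, 3 of them by at least 2-fold. The brightest gave 1310.0, 1945, 300.3 and 1022 units, 6.48-fold lower in pachytene than in type B and 3.40-fold higher in round spermatids than in pachytene. A second, on U74Av2, gave 459.7, 434, 44.6 and 364 units, at least 8.67-fold lower and at least 7.27-fold higher. Another probe set, on U74Cv2, gave 320.2, 249, 123 and 44.6 units and was lowest in round spermatids, at least 2.47-fold lower again. Averaged over all 8 probe sets, the log2 ratios of Eif1ax were -0.97 at the pachytene step and 0.42 at the round spermatid step. In this average the probe sets at the floor in every cell type counted as no change, which pulls it down. A decrease in pachytene spermatocytes was common on this chromosome. Of 368 tested X-linked genes 53.3% were at least 2-fold lower in pachytene than in type B and 1.09% higher, with a median log2 ratio of -1.05, and 22.8% of 272 were higher and 7.72% lower in round spermatids than in pachytene. Being at least 2-fold lower in pachytene than in both neighbours held for 2 of 57 factor genes, Eif1ax and Eif2s3y, for 2.34% of all genes and for 8.63% of X-linked genes.

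The autosomal genes grouped here with eIF1 and eIF1A differed from each other, and those with 2 probe sets also between these. Eif1a, of the same family as Eif1ax and with probes that may share sequence with it, gave 187, 218, 391 and 246 units. These were within 2-fold at each step and highest in pachytene. Its second probe set gave 110.2, 136, 105 and 35.6 units and was at least 2.09-fold lower in round spermatids than in pachytene. Eif1b, which encodes a form of the start codon selection factor eIF1 (chromosome 9), gave 741, 682, 1828 and 1014 units and was 2.68-fold higher in pachytene than in type B, in all 10 settings at least 2-fold. Eif1ad gave 217, 301, 315 and 319 units on its brighter probe set, with the cell types within 2-fold, but 338, 372, 136 and 238 units on the other, 2.74-fold lower in pachytene.

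The other eIF2 genes were dim. Eif2s2 exceeded the floor in both spermatogonial types, at 61.4 and 59.1 units, and in neither later cell type. Eif2a and Eif2d, which can bring initiator transfer RNA to the ribosome without eIF2, ranged from 50.5 to 113 units and from 75.4 to 121 units with no step of 2-fold on their brightest probe sets. Another probe set of Eif2d, on U74Cv2, disagreed with 53.1, 204, 66.3 and 29.8 units, 3.84-fold higher in type B than in type A and 3.08-fold lower in pachytene, its type A signal being under the highest negative control. Of the 4 kinases that phosphorylate eIF2 and so slow initiation, Eif2ak1 gave 225, 298, 319.6 and 291 units, all within 2-fold. Its U74Av2 probe set disagreed, with 126, 104, 328 and 96.9 units, 3.15-fold higher in pachytene than in type B and 3.38-fold lower in round spermatids. Eif2ak2 gave 18.2, 32.9, 44.9 and 55.0 units, Eif2ak3 70.4, 45.3, 5.40 and 18.7 and Eif2ak4 61.4, 44.2, 10.2 and 2.30, each over the floor in 1 cell type, and no kinase gene was called at any step on its brightest probe set.

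Of 11 genes of the scaffold eIF3 1 was at least 2-fold lower in pachytene cells than in type B, 1 of 10 was lower in round spermatids than in pachytene, and none was higher at any step, where 23.2% and 13.7% of all genes were lower. The median log2 ratios were -0.02, -0.07 and 0.06 at the 3 steps and moved with the scaling. At the pachytene step the median was 0.63 with a common median and 0.71 with spike-in scaling, which also gave -0.91 at the type B step with 10 of 10 ratios below 0. Eif3j1, a loosely bound subunit at the decoding site (chromosome 2), gave 453, 303, 111 and 97.4 units, 2.72-fold lower in pachytene, with log2 ratios of -1.45, of -0.93 with a common median and of -0.67 with spike-in scaling. Eif3a, the largest subunit (chromosome 19), gave 219.9, 153, 142 and 60.6 units, 2.35-fold lower in round spermatids than in pachytene and close to the floor there, so that a floor of 0.8 gave a log2 ratio of -0.51 in place of -1.23. Eif3b, another core subunit, gave 755, 742, 1168 and 1561 units, highest in round spermatids with steps under 2-fold. Eif3c gave 1602, 1443, 2325 and 2457 units on U74Av2 and 843, 598, 385 and 210.0 units on U74Cv2, which run in opposite directions after type B. The remaining members Eif3d, Eif3e, Eif3i, Eif3k, Eif3l and Eif3m were over the floor in all cell types with no step of 2-fold, and Eif3f exceeded it in type B alone, at 58.7 units.

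Of 7 tested eIF4 genes for cap binding and unwinding, 3 were at least 2-fold lower in round spermatids than in pachytene spermatocytes and none higher, where 13.7% of all genes were lower and 10.5% higher. Eif4e2, counted among them, turned sign in other settings. The median log2 ratio of the 7 was -0.79, and -0.14 with quantile normalisation and -0.30 with the mean over probe sets. Eif4a2, 1 of the paralogous eIF4A helicases that unwind the leader (chromosome 16), gave 1078, 1093, 1149.7 and 228 units. The first 3 cell types were nearly level and round spermatids were 5.05-fold lower than pachytene, at least 2-fold in all 10 settings. Its paralogue Eif4a1 gave 305, 268, 184 and 161 units with no step of 2-fold. Eif4e, the cap-binding protein (chromosome 3), gave 506, 502, 541 and 262 units, 2.06-fold lower in round spermatids, a log2 ratio of -1.05 that was -0.61 with spike-in scaling, -0.89 with quantile normalisation and -0.35 averaged over its probe sets, of which the others were at the floor in all 4 cell types.

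The probe sets of the cap-binding homologue Eif4e2 (chromosome 1) disagreed. The brightest, on U74Cv2, gave 155, 72.3, 633 and 149 units, 2.15-fold lower in type B than in type A, 8.76-fold higher in pachytene and 4.25-fold lower in round spermatids, and its type B signal was under the highest negative control of that array. A probe set on U74Bv2 gave 259, 328, 167 and 210.4 units, with pachytene lowest, and another there 66.6, 32.6, 130.5 and 104 units, at least 2.61-fold higher in pachytene. Of the 5 other probe sets over the floor 3 were higher in pachytene than in type B and 2 lower. With quantile normalisation the log2 ratios were 0.44, -0.96 and 0.38 at the 3 steps and with U74Av2 alone 0.47, -0.065 and 0.18, each opposite to the main sign. U74Av2 alone reads another probe set than the main one, and each scaling picks the probe set of highest mean anew. Eif4e1b and Eif4e3, further homologues, exceeded the floor in type B alone, with 47.8, 63.8, 16.2 and 31.9 and 37.0, 87.9, 10.6 and 17.6 units.

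Of the eIF4G scaffolds, Eif4g1 was not among the members. Eif4g3 (chromosome 4) gave 142, 83.9, 453 and 261 units, 5.40-fold higher in pachytene than in type B. Its U74Cv2 probe set gave 26.3, 106, 41.6 and 17.0 units, at the floor outside type B and so at least 2.13-fold lower in pachytene. The log2 ratio averaged over the probe sets was 0.45 in place of 2.43, with a probe set at the floor in every cell type counted as no change. Eif4g2, which supports cap-independent initiation, gave 172, 211, 197 and 163 units within 2-fold and 75.0, 99.0, 177 and 78.6 units on another probe set, 2.25-fold lower in round spermatids than in pachytene. Eif4b, a helicase helper, gave 341, 401, 238 and 192 units with no step of 2-fold.

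Of the proteins that bind eIF4E, Eif4ebp1, which keeps it from eIF4G, gave 90.7, 93.8, 22.5 and 36.5 units, over the floor in both spermatogonial types and in neither later type. Eif4ebp2, of the same family, gave 416, 343, 284 and 159 units with no step of 2-fold, and its second probe set 79.2, 173, 54.8 and 35.7 units, 2.19-fold higher in type B than in type A and 3.16-fold lower in pachytene. Eif4enif1, which carries eIF4E into the nucleus and into processing bodies, gave 1059.9, 913, 602 and 509 units with no step of 2-fold, highest in type A and lowest in round spermatids.

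**Figure D4:**
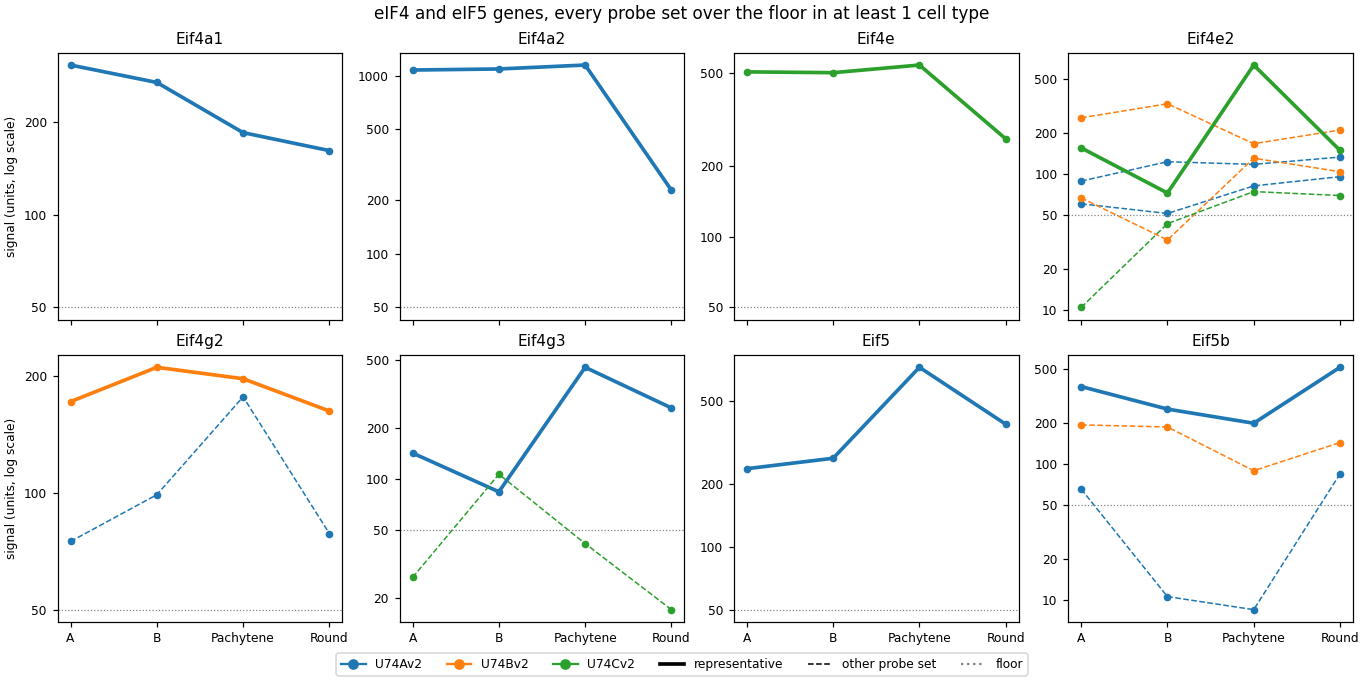
Signals (units, log scale) of 6 eIF4 genes and of Eif5 and Eif5b in the 4 cell types (1 array per point), with colours for the designs, thick lines for the probe set of highest mean signal, dashed lines for other probe sets and a dotted line at the floor. Eif4a2 reads 1150 units in pachytene spermatocytes and 228 in round spermatids, and the probe sets of Eif4e2 spread in direction.

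The genes of subunit joining differed from each other. Eif5, which triggers GTP hydrolysis by eIF2 (chromosome 12), gave 237, 266, 723 and 386 units. Pachytene spermatocytes were highest, 2.72-fold over type B, in all 10 settings at least 2-fold. Eif5b, the GTPase that joins the ribosomal subunits (chromosome 1), gave 371, 253, 199 and 514 units, lowest in pachytene and 2.58-fold higher in round spermatids. Its probe set on U74Bv2 gave 194, 187, 89.3 and 144 units, 2.10-fold lower in pachytene than in type B, and averaged over probe sets the round spermatid log2 ratio was 0.94. Eif6, which keeps the large subunit from joining early, gave 346, 408, 319 and 185 units with no step of 2-fold. The translation factor eIF5A, which carries the modified lysine hypusine, was seen through Eif5a at 17.3, 19.4, 27.2 and 55.1 units, over the floor in round spermatids alone, and Eif5a2 at 462, 249, 174 and 135 units, highest in type A with no step of 2-fold.

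Of 11 tested Eef genes 3 were at least 2-fold lower in pachytene than in type B and none higher. The lower share was 27.3%, near that of all genes (23.2% lower and 17.1% higher). These were Eef1aknmt, Eef1e1 and Eef2k, a methylating enzyme, a scaffold protein and a kinase. The factor genes Eef1a1, Eef1a2, Eef1b2, Eef1d and Eef2 stayed under 2-fold at this step on their brightest probe sets. Of the 11 ratios 10 were below 0, as were 7594 of 12281 over all genes, with a median log2 ratio of -0.76, beside -0.28 for all genes. For the 5 tested genes grouped under eEF1, Eef1e1 among them, this median was -0.82. With spike-in scaling it was -0.05, where that of all genes was 0.35. Eef1a1, which delivers aminoacyl transfer RNA (chromosome 9), gave 7653, 10839.8, 6600.5 and 5998 units, highest in type B with no step of 2-fold, and Eef1a2, its tissue-restricted paralogue, gave 67.9, 114, 76.9 and 111 units. Many processed copies of Eef1a1 exist in the genome, so its reading is uncertain.

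Eef1d, a guanine nucleotide exchange subunit (chromosome 15), gave 513, 545, 308 and 1321 units on its single probe set. Round spermatids were highest and 4.28-fold over pachytene, at least 2-fold in all 10 settings. Eef1b2, another exchange subunit (chromosome 1), gave 58.1, 134, 73.9 and 43.9 units, 2.30-fold higher in type B than in type A and at the floor in round spermatids, and its log2 ratio of 1.20 was between 0.38 and 0.60 in the 4 settings that brought it under 2-fold. The fibroblast list was also higher in type B, as given above, and its part in the Eef1b2 signal was not tested. Eef1e1, a scaffold protein of the aminoacyl transfer RNA synthetase complex (chromosome 13), gave 303, 398, 188 and 95.2 units, 2.11-fold lower in pachytene and 1.98-fold lower again in round spermatids, with log2 ratios of -0.48 with a common median and -0.50 with spike-in scaling at the former step.

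Eef2, the translocase (chromosome 10), gave 2584, 2333, 1907 and 2439 units, all within 2-fold, and 889, 992, 563 and 366 units on U74Cv2, where round spermatids were lowest. Eef2k, the kinase that inactivates eEF2 (chromosome 7), gave 281, 213, 88.5 and 91.5 units, 2.41-fold lower in pachytene than in type B. A U74Cv2 probe set gave 167, 174, 84.0 and 108 units, 2.07-fold lower, while its U74Av2 probe set was near the floor, and the log2 ratio of -1.27 came to between -0.98 and -0.13 in 5 settings. Of the enzymes that methylate elongation factors, Eef1aknmt (chromosome 1) gave 374, 386, 127 and 117 units, 3.05-fold lower in pachytene than in type B, or a log2 ratio of -0.80 averaged with a probe set that was at the floor outside type A. Eef2kmt (chromosome 16) gave 241, 243, 341 and 95.7 units, 3.56-fold lower in round spermatids than in pachytene, at least 2-fold in each of the 9 settings that could measure it. Eef1akmt1 and Eef1akmt2 read between 31.3 and 84.5 units, near the floor.

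**Figure D5:**
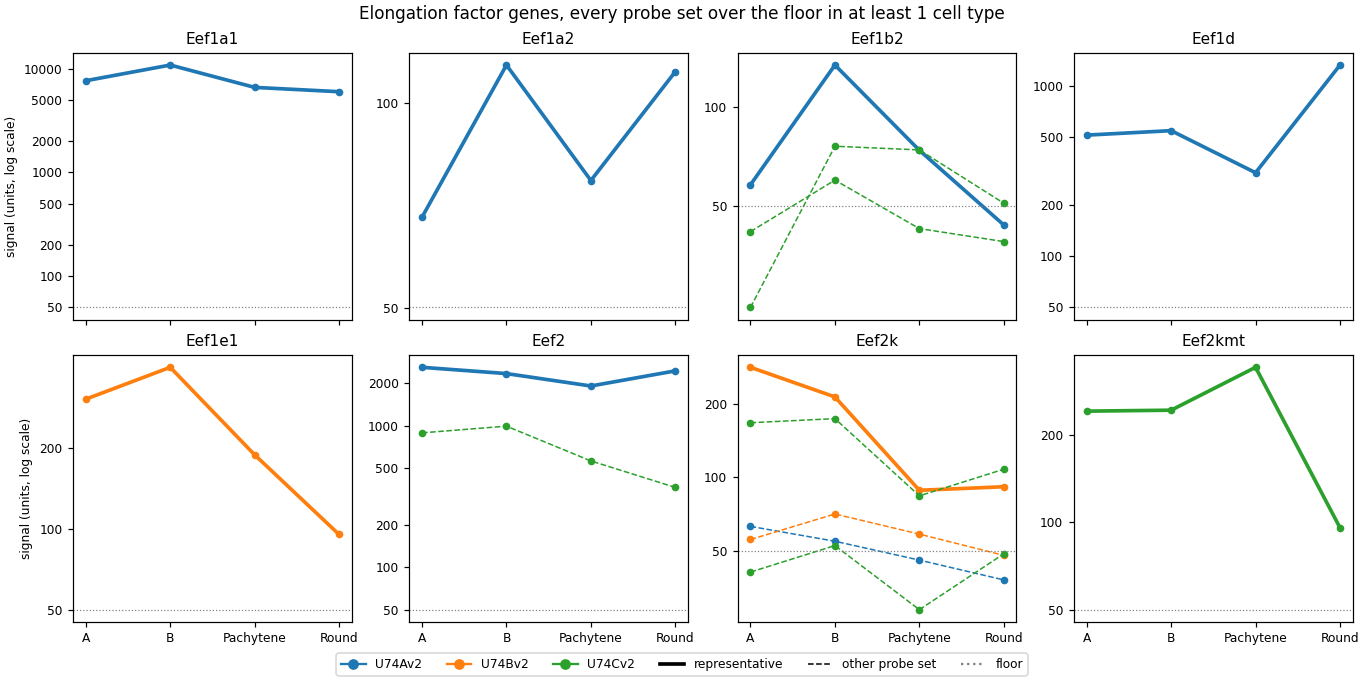
Signals (units, log scale) of 8 Eef genes in the 4 cell types (1 array per point), with colours for the designs, thick lines for the probe set of highest mean signal, dashed lines for other probe sets and a dotted line at the floor. Eef1d reads 308 units in pachytene spermatocytes and 1321 in round spermatids, and Eef2kmt 341 and 95.7 units.

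Probe sets of 1 gene give a view of the error across probes. At the pachytene step 38.1% of 63 pairs of probe sets of a factor gene had ratios differing by over 2-fold (all genes 35.3%), at the type B step 10.2% of 59 pairs (17.9%) and at the round spermatid step 24.4% of 45 pairs (30%). Of the 28 ratios of at least 2-fold, 14 had another tested probe set. In 7 of these at least 1 other probe set was 2-fold in the same direction, and in 5 at least 1 was opposite.

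Other genes of translation were taken from a list of 51, of which 48 were measured. For pachytene over type B 13 of 46 were at least 2-fold higher and 11 lower (28.3% and 23.9%, against 17.1% and 23.2% of all genes), for round spermatids over pachytene 4 of 43 were higher and 10 lower (9.3% and 23.3%, against 10.5% and 13.7%), and for type B over type A 3 of 45 and 5 (6.67% and 11.1%, against 3.92% and 3.94%). Among the poly(A)-binding proteins, which bridge the tail to eIF4G, Pabpc1 gave 2363, 1702 and then 7717 and 7818 units, 4.53-fold higher in pachytene. Pabpc2 gave 51.4, 73.9, 3321 and 4936 units, 44.9-fold higher, and Pabpc6 was at the floor before pachytene and at least 17.0-fold higher there, at 850.3 units. Pabpc4 was at least 4.38-fold lower. These are close relatives, so that a probe may read more than 1 of them. Of their regulators, Paip1 was 2.83-fold higher in pachytene and 5.96-fold lower in round spermatids, and Paip2 was 5.10-fold lower in pachytene.

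Helicase and cap genes included differences in both directions. The X-linked Ddx3x gave 309, 403, 61.6 and 28.3 units, 6.54-fold lower in pachytene, and its autosomal relative D1Pas1 gave 487, 172, 2786 and 1018 units, 16.2-fold higher. Ncbp1, a subunit of the nuclear cap-binding complex, was 5.73-fold higher in pachytene. Ppp1r15a and Ppp1r15b, which direct a phosphatase to eIF2 and so oppose its kinases, were 4.50-fold and at least 4.07-fold lower in pachytene than in type B. In round spermatids the release factor gene Etf1 was 6.10-fold higher than in pachytene, and Dph3, which serves the diphthamide modification of eEF2, was 8.20-fold lower after being 3.04-fold higher in pachytene.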

How the data were processed

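Total RNA of 4 mouse germ cell types was hybridised to 3 array designs, 1 array each, after one-cycle labelling per the labels. The authors deposited linear intensity signals, 1 per probe set, and their processing notes name MAS5, whose settings and version are not given in the sources used here. In the deposited values the trimmed mean of every array (2% cut at each end) is about 125.1.

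Arrays of a design were brought to the geometric mean of their 4 trimmed means, a floor of 0.4 of that value was set, and log2 was taken. Each gene was read from its probe set of highest mean signal. A ratio was tested where 1 of the 2 cell types exceeded the floor, and called at 2-fold. With no replicates no test of significance was run. Names came from the platform annotation, and all 126 members matched RefSeq. Python 3.11.15, numpy 2.4.6 and pandas 2.3.3 were used, and the calling step was tested on simulated data.

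Signals are given in full for genes at least 2-fold different at a step and for paralogue groups, and the other members by range and count, while some further members and probe sets were named after their values were seen. Listed translation genes are named where at least 4-fold different. The members and lists were chosen with earlier results of these data known. Sequences come from RefSeq start windows (GRCm38.p6). The alternatives were 4 scalings, 2 floors, a stricter filter, the mean over probe sets, leaving out probe sets with special endings, and U74Av2 alone. The mean over probe sets took every probe set of a gene, and those at the floor in both cell types counted as no change.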

Additional observations from a re-analysis of the deposited data

How the results depend on the processing

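Of the 28 ratios of at least 2-fold, 9 stayed so in every setting that could measure them. All but those of Eif2b5 came from genes with 1 probe set, for which averaging over probe sets could change nothing. Those of Eif2b5 could not change with U74Av2 alone or without special endings, as given above. Over 271 values under the 10 alternatives, 232 stayed at least 2-fold in the same direction, 33 came under 2-fold and 6 turned. The 232 include values from the stricter filter and from the values as deposited, which could change little or nothing. All 6 turned values were of Eif4e2. Its log2 ratios at the 3 steps were 0.44, -0.96 and 0.38 with quantile normalisation. With U74Av2 alone they were 0.47, -0.065 and 0.18. The main probe set of Eif4e2 is on U74Cv2, so that U74Av2 alone read another. Each scaling picked the probe set of highest mean anew, and which of them quantile normalisation read was not recorded. Of 130 counts and medians, 99 stayed within 1.5 times the main count or the spread, and these 31 did not. Shares of all genes are given in brackets. None were taken for counts over each other cell type, so that those counts cannot be set against all genes. With a common median 2 of 54 genes were lower in type B than in type A (5.21%). In pachytene over type B 11 of 52 were higher and 4 lower (25.5% and 12.5%) with a median of 0.22. At least 2-fold over each other cell type were 1 and 3 genes in type A and in pachytene. With spike-in scaling the type B step had 0 of 53 higher and 16 lower (0.39% and 33.8%) with a median of -0.74. The pachytene step had 15 of 52 higher and 3 lower (29% and 10.1%) with a median of 0.45. The round spermatid step had 12 of 50 lower (15.9%), and type A and pachytene had 5 and 4 genes over each other cell type. With quantile normalisation 0 of 54 were lower in type B (5.21%) and 0 genes were over each other cell type in round spermatids. A floor of 0.2 gave 3 of 56 higher in type B (6.43%), 13 of 57 lower in pachytene (26.8%), and 1 and 2 genes over each other cell type in type B and in round spermatids. A floor of 0.8 gave 0 of 46 higher and 0 lower in type B (2.03% and 2.62%). The mean over probe sets gave 0 of 55 higher and 0 lower in type B (2.22% and 1.94%), 5 of 53 lower in pachytene (15.3%) and 2 of 49 higher in round spermatids (7.64%). Without probe sets of special endings 0 of 48 were higher in type B (3.43%) and 2 genes were over each other cell type in pachytene. With U74Av2 alone 0 of 43 were lower in type B (1.92%) and 4 of 41 lower in pachytene (22.2%). The cause of these differences was not tested, other than that a setting with fewer probe sets tests fewer genes.

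Signal over background limits the dim genes, since negative controls reached 103.5 units, above the floor. No paired analysis was possible because each cell type had 1 array per design, and leaving out a replicate was not possible for the same reason.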
